A study of Mus musculus with 15 samples.

Results

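The BMP and TGF-beta ligands described here are 8 secreted signalling proteins encoded by Bmp2, Bmp4, Bmp5, Bmp7, Bmp10, Tgfb1, Tgfb2 and Tgfb3. The genes were taken by name, with earlier results of these data known, and all 8 are among the 16809 genes of the deposited table. They were followed through single-cell transcriptomes of hearts from mouse embryos at E14.5, to show which cells held their transcripts, in which chamber, and how their levels differed between Adamts19 genotypes and between 2 Adamts19 alleles.

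Adamts19 encodes a secreted metalloprotease, and the series is titled for its part in heart valve disease. Cells were captured by Drop-seq, in which each cell is enclosed in a droplet with a barcoded bead and each captured transcript is counted by a unique molecular identifier (UMI). There were 7 libraries of Adamts19+/+ (WT) hearts and 8 of homozygous Adamts19-/- (KO) hearts, all on the C57BL6/N background. Of the KO libraries, replicates 1 to 4 carried the tm4a allele and replicates 5 to 8 the tm4b allele. The WT libraries came from 4 litters, the tm4a libraries from 2 and the tm4b libraries from 1, and no litter gave libraries of 2 groups, so litter and genotype, and litter and allele, cannot be told apart. All 8 KO libraries shared a flow cell with WT replicate 5, and the other 6 WT libraries were on other flow cells. The sources used here do not give how many embryos a library held or which part of Adamts19 the alleles remove. A test over libraries therefore measures the spread between these libraries, which may in part be technical.

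BMPs and TGF-betas are released as dimers and bind pairs of type I and type II receptor kinases, which phosphorylate Smad proteins that enter the nucleus. BMP receptors act mainly through Smad1 and Smad5, and TGF-beta receptors through Smad2 and Smad3. In the developing heart, Bmp2 from the atrioventricular myocardium and Tgfb2 are known for driving endocardial cells into the cushion mesenchyme that becomes valves, Bmp4 for outflow tract septation, and Bmp10 for growth of the trabeculae, the muscle ridges that line the chambers. TGF-betas are secreted in a latent form that is held by binding proteins in the matrix.

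The sequence upstream of Bmp10, the ligand counted least often, and of Tgfb2, the one counted most often, is shown for what lies before the start of each gene. RefSeq promoters of the GRCm38.p6 build were matched for 5 of the 8 ligands (Bmp4, Bmp5, Bmp10, Tgfb1 and Tgfb2), and the 250 bases before each start were searched on both strands for 6 motifs. The Bmp10 window is chr6:87428744-87428993 on the plus strand, with the GATA factor motif AGATAA in capitals. The Tgfb2 window is chr1:186705990-186706239 on the minus strand, with an E-box, CACGTG, and a core promoter box, TATAAA, in capitals. Both are printed 5′ to 3′, ending at the last base before the start.
Bmp10: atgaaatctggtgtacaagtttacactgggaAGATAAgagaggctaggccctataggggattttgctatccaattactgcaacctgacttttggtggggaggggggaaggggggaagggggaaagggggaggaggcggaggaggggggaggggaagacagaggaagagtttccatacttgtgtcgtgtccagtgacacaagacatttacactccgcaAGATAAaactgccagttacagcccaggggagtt
Tgfb2: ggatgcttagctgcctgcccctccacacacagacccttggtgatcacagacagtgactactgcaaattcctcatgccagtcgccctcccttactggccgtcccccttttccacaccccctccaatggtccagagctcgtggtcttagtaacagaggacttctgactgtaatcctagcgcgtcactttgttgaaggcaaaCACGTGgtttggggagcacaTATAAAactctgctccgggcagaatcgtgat

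AGATAA stood at 219 to 214 and at 33 to 28 bases before the Bmp10 start and in no other ligand window searched, against 9.99% of the 32851 promoters of the same length. TATAAA stood at 31 to 26 bases before the Tgfb2 start and in 12.4% of all promoters. CACGTG stood in the Tgfb2 window at 51 to 46 bases before the start and in the Bmp4 window at 188 to 183 bases, against 6.02% of all promoters. The AP-1 motif TGACTCA (4.46% of all promoters), the Smad-type palindrome GTCTAGAC (0.167%) and the GC-rich Smad motif GGCGCC (9.59%) were in 0 of the 5 windows. A match describes these letters only, and none of the data here measure binding.

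In the GENCODE annotation of GRCm38, the BMP genes lie at chr2:133552159-133562885 on the plus strand (Bmp2, 3 exons), chr14:46383520-46390669 on the minus strand (Bmp4, 4 exons), chr9:75775364-75900310 on the plus strand (Bmp5, 7 exons), chr2:172868012-172940321 on the minus strand (Bmp7, 7 exons) and chr6:87428994-87437677 on the plus strand (Bmp10, 2 exons). The TGF-beta genes lie at chr7:25687002-25705077 on the plus strand (Tgfb1), chr1:186622792-186705989 on the minus strand (Tgfb2) and chr12:86056745-86079041 on the minus strand (Tgfb3), with 7 exons each. Bmp4, Tgfb2 and Tgfb3 overlap annotated genes on the opposite strand, and Bmp5 overlaps 1 gene on each strand. The sources used here do not say whether counting was by strand, so reads of overlapping genes could not be separated for these 4 ligands.

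After filtering, 22381 WT and 28390 KO cells remained, with 6101934 to 11198676 UMIs per WT library and 5367748 to 9945449 per KO library. The median cell held 1801 ± 323 UMIs in WT (SD, n = 7) and 1540 ± 179 in KO (SD, n = 8). Of 55053 barcode sequences, 87 occurred in more than 1 library. Adamts19 itself was at 15.8 to 49.9 counts per 1000000 UMIs (CPM) in the 7 WT libraries and at 5.28 to 8.60 CPM in the 8 KO libraries, so every library matched its label. The fitted log2 difference was -2.17 ± 0.21 (SE, edgeR adjusted p = 3.843e-05). LacZ was at 0 in all 7 WT libraries and at 5.403 to 91.6 CPM in the 8 KO libraries.

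Cells were clustered without the ligands or other genes of their pathway, and clusters were named from marker lists as cardiomyocyte-like, valve interstitial-like (the mesenchyme of the valves), fibroblast-like, epicardial-like, mural-like (pericytes and smooth muscle), endocardial-like, vascular endothelial-like, valve endothelial-like and macrophage-like. Cytokine genes Cxcl2, Ccl4, Ccl3 and Il1b stood beside C1qb and Tyrobp among the leading genes of the macrophage-like cluster. Levels below are CPM of all UMIs of the class in a library, given as mean ± SD over the 15 libraries unless stated, and each ligand is compared with itself only. Differences between classes are means over libraries of the paired difference in log2(CPM + 1), which understates changes at low levels. They were tested with exact two-sided sign-flip permutation tests, adjusted over 72 comparisons (8 of the highest class with all other cells, 64 of classes next to each other in order), of which 23 passed an adjusted p of 0.05. The order of classes came from the same libraries, and 6.104e-05 is the smallest p that 15 libraries allow. In the mural-like class, 1 tm4a library had fewer than 10 cells and was left out, so n = 14 there.

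Bmp2 was concentrated in macrophage-like and valve interstitial-like cells. Its level was 266 ± 154 CPM in macrophage-like cells, ranging over libraries from 40.2 to 558 with a median of 253. In valve interstitial-like cells it was 184 ± 97.3 CPM, ranging from 56.6 to 370 with a median of 169. The 2 classes did not differ past the threshold (log2 difference 0.45 ± 0.78 SD, higher in macrophage-like cells in 11 of 15 libraries, exact permutation adjusted p = 0.107). With called doublets kept, a setting in which all cells were clustered and named anew, this step passed (0.63, adjusted p = 0.026, exact permutation). Macrophage-like cells exceeded all other cells by 2.90 ± 0.76 in 15 of 15 libraries (exact permutation adjusted p = 0.000338). Valve interstitial-like cells exceeded the next class, vascular endothelial-like cells at 33.2 ± 28.2 CPM, by 2.85 ± 1.55 in 15 of 15 (adjusted p = 0.000338, exact permutation). The remaining means fell from 25.4 CPM in valve endothelial-like to 9.86 CPM in endocardial-like cells, and of the 6 neighbouring pairs below valve interstitial-like cells only fibroblast-like over mural-like cells differed (0.67, exact permutation adjusted p = 0.0276, and 0.321 with called doublets kept).

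Because the classes differ in size, the largest share of Bmp2 transcripts came from elsewhere than the class with the highest level. Valve interstitial-like cells held 40.0% of the 4534 Bmp2 UMIs and 7.79% of all UMIs. Macrophage-like cells held 14.51% of the Bmp2 UMIs and 1.89% of all UMIs. Cardiomyocyte-like cells held 26.1% of the Bmp2 UMIs and 50.2% of all UMIs. At least 1 Bmp2 UMI was found in 19.7% of 5249 valve interstitial-like cells (95% exact binomial interval 18.7 to 20.8%, median 1425 UMIs per cell) and in 19.0% of 1240 macrophage-like cells (16.8 to 21.2%, median 1332). The endocardial-like share was 1.55% (1.24 to 1.91%, median 1521) and is given for comparison as that of a class with a low level. With every cell thinned to 1000 UMIs and shallower cells left out, the shares were 15.03% of 3466 valve interstitial-like, 16.6% of 758 macrophage-like and 0.836% of 3710 endocardial-like cells. These intervals cover counting error only.

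Bmp4 was spread over several classes. It was highest in valve endothelial-like cells at 162 ± 49.1 CPM, ranging from 53.9 in WT replicate 3 to 214 in WT replicate 2, and this exceeded all other cells by 2.33 ± 0.75 log2 in 15 of 15 libraries (exact permutation adjusted p = 0.000338). Mural-like cells followed at 117 ± 46.3 CPM and epicardial-like cells at 116 ± 55.2 CPM, and neither step down passed the threshold (0.57 and 0.073, adjusted p = 0.108 and 0.901, exact permutation), although the first did with called doublets kept (1.30, adjusted p = 0.00505, exact permutation). Valve interstitial-like cells had 75.9 ± 21.6, vascular endothelial-like 48.2 ± 27.01 and fibroblast-like 42.6 ± 12.4 CPM, with no neighbouring pair past the threshold. The next 3 steps passed: fibroblast-like over cardiomyocyte-like cells at 13.3 ± 4.92 CPM (1.63, adjusted p = 0.000338), cardiomyocyte-like over endocardial-like cells at 7.99 ± 3.20 CPM (0.68, adjusted p = 0.00461) and endocardial-like over macrophage-like cells at 4.67 ± 5.27 CPM (1.28, adjusted p = 0.0344, all exact permutation). The last of these was not past the threshold with log2(CPM + 10) (adjusted p = 0.0682, exact permutation). A Bmp4 UMI was present in 18.3% of 1643 valve endothelial-like cells and in 1.37% of 5611 endocardial-like cells, and in 12.8% and 0.755% after thinning.

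Bmp5, Bmp7 and Bmp10 were cardiomyocyte-like. Bmp5 stood at 20.2 ± 4.91 CPM in these cells (range 10.99 to 29.05), 2.42 log2 above all other cells in 15 of 15 libraries (exact permutation adjusted p = 0.000338). Valve interstitial-like cells came next at 6.38 ± 4.54 CPM, and every other class had a mean of 3.38 CPM or less with 3 to 11 libraries at 0. Cardiomyocyte-like cells held 87.1% of the 1449 Bmp5 UMIs.

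For Bmp7 the cardiomyocyte-like level was 56.4 ± 14.4 CPM (range 38.3 to 102), 3.21 log2 above all other cells in 15 of 15 libraries (exact permutation adjusted p = 0.000338), and these cells held 91.4% of 3806 UMIs. The other 8 classes had means of 2.19 to 8.80 CPM and no neighbouring pair among them differed past the threshold. A Bmp7 UMI was found in 13.6% of 21561 cardiomyocyte-like cells and in 0.463% of endocardial-like cells, and in 5.78% and 0.108% after thinning.

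Bmp10 was the sparsest ligand, with 288 UMIs in all, of which 270 (93.8%) were in cardiomyocyte-like cells at 4.17 ± 1.83 CPM. No Bmp10 UMI was found in 5249 valve interstitial-like cells, which allows a share of cells with a UMI of up to 0.0572%, or in vascular endothelial-like cells. The other 6 classes held 1 or 2 UMIs each.

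Tgfb1 was found mainly in macrophage-like cells and in the 3 endothelial classes, the endocardium included. Its level was 32.6 ± 15.8 CPM in macrophage-like cells (range 9.40 to 63.2), 21.96 ± 10.63 in valve endothelial-like, 19.3 ± 13.0 in vascular endothelial-like and 13.8 ± 4.77 in endocardial-like cells. These 4 classes did not separate from their neighbours (exact permutation adjusted p = 0.157, 0.722 and 0.210), and the step from endocardial-like to valve interstitial-like cells at 5.14 ± 3.25 CPM did (1.43, higher in 14 of 15 libraries, exact permutation adjusted p = 0.000488). Endocardial-like cells held 30.1% of the 554 Tgfb1 UMIs. In cardiomyocyte-like cells, with about the same share of all UMIs as all other cells together, there were 20 UMIs (0.357 ± 0.316 CPM), and 0.0881% of these cells had a UMI, against 5.73% of macrophage-like cells.

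Tgfb2 was counted most often, with 14875 UMIs, and was highest in mesenchymal classes. Mural-like cells had 336 ± 65.8 CPM (range 221 to 438, median 340, n = 14) and valve interstitial-like cells 326 ± 73.5 CPM (range 164 to 426, median 309), and these did not differ past the threshold (-0.013 ± 0.17, higher in mural-like cells in 7 of 14 libraries, exact permutation adjusted p = 0.901), although mural-like cells were lower with finer clusters (-0.29, adjusted p = 0.0113, exact permutation). Epicardial-like cells had 267 ± 66.9, fibroblast-like 168 ± 26.9, endocardial-like 110 ± 24.95 and valve endothelial-like cells 71.8 ± 29.6 CPM, and each of these 3 steps passed (0.64, 0.63 and 0.69, exact permutation adjusted p of 0.000338, 0.000338 and 0.00837). Cardiomyocyte-like cells at 63.3 ± 8.00 CPM exceeded macrophage-like cells at 28.7 ± 20.9 CPM (1.63, exact permutation adjusted p = 0.00139), and vascular endothelial-like cells had 24.4 ± 13.8 CPM. A Tgfb2 UMI was found in 44.0% of 2522 mural-like cells and in 4.59% of 1526 vascular endothelial-like cells, and in 27.8% and 2.29% after thinning.

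Tgfb3 had a similar order. Valve interstitial-like cells led with 126 ± 31.7 CPM (range 82.3 to 183), 2.34 ± 0.33 log2 above all other cells in 15 of 15 libraries (exact permutation adjusted p = 0.000338). Epicardial-like cells at 106 ± 26.95 and mural-like cells at 88.8 ± 28.7 CPM followed without a step past the threshold (adjusted p = 0.0955 and 0.181, exact permutation). Mural-like exceeded fibroblast-like cells at 60.2 ± 16.9 CPM in 14 of 14 libraries (0.55, exact permutation adjusted p = 0.000488), a step not past the threshold with finer clusters (0.15, adjusted p = 0.589, exact permutation). Fibroblast-like exceeded valve endothelial-like cells at 17.1 ± 8.19 CPM by 1.86 in 15 of 15 libraries (exact permutation adjusted p = 0.000338), and the other 4 classes had means of 4.22 to 13.2 CPM.

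**Figure D1:**
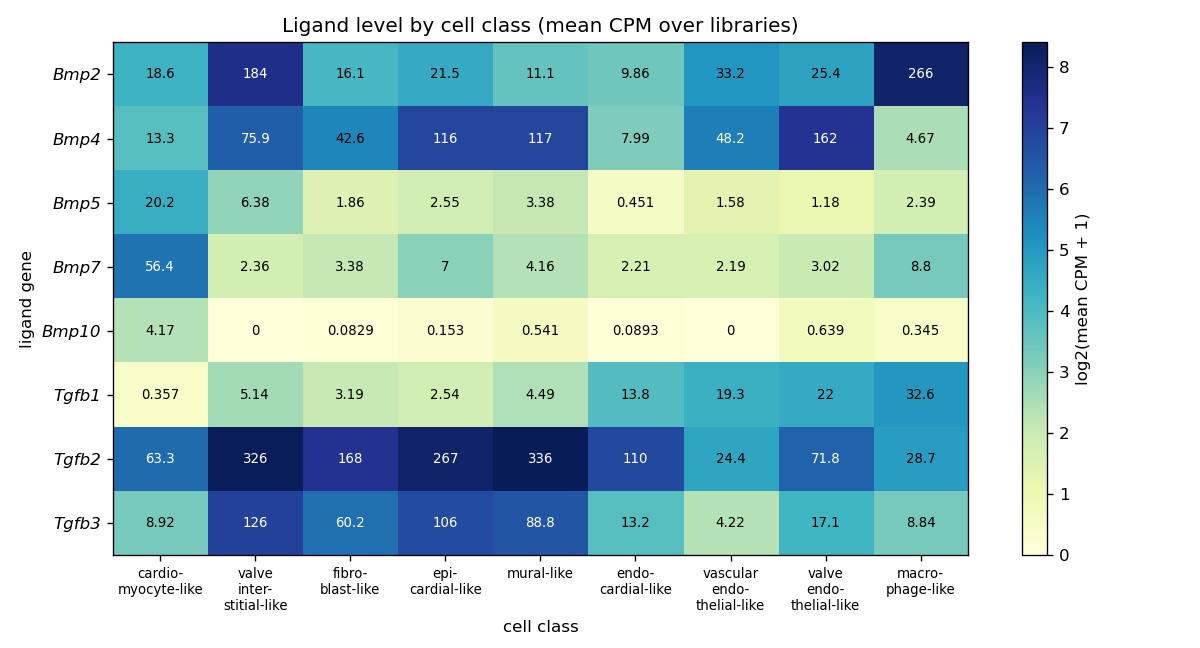
Mean level of each ligand (rows) in 9 cell classes (columns); each cell prints the mean over libraries in CPM and is coloured by log2(mean CPM + 1). Bmp5, Bmp7 and Bmp10 are darkest under cardiomyocyte-like cells, Tgfb2 and Tgfb3 under valve interstitial-like, epicardial-like and mural-like cells, Bmp2 under macrophage-like (266) and valve interstitial-like cells (184), and Bmp4 under valve endothelial-like cells (162).

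Some ligands had similar profiles. Over 11 groups of cells (the 9 classes, with cardiomyocyte-like cells divided into 3 chamber groups), Pearson's r of the mean log2(CPM + 1) was 0.94 between Tgfb2 and Tgfb3, 0.91 between Bmp5 and Bmp7, 0.80 between Bmp7 and Bmp10 and 0.71 between Bmp4 and Tgfb3. Bmp5 and Bmp10 also had 0.71, and the lowest r was -0.80, between Bmp5 and Tgfb1. The groups come from the same libraries and share their depth, so these are descriptions without a test. As 3 of the 11 groups are cardiomyocyte-like, genes found mainly in such cells have a high r with each other. Among 11843 genes with at least 10 CPM in a group, the closest to Bmp10 were Gm13054 (r = 0.98), Slc16a12 (0.96) and Nppa, which encodes atrial natriuretic peptide (0.96). The closest to Bmp7 were Ndufa13, Mdh1 and Ndufa7 (r = 0.99 each), of which Ndufa13 and Ndufa7 encode subunits of mitochondrial NADH dehydrogenase and Mdh1 the cytosolic malate dehydrogenase. Bmp5 was closest to Mlip (0.98), Palm2 (0.97) and Adra1b, an adrenergic receptor gene (0.97). For Bmp2, whose profile had separate peaks, the closest were Stx7 (0.86), the MHC class II gene H2-Eb1 (0.86) and Commd8 (0.84). Bmp4 was closest to Prpf18 (0.94), Inpp5f (0.93) and Fads2 (0.92). Among the closest to Tgfb1 were Fxyd5 (0.99) and Lgals8 (0.98). Tgfb2 was closest to Insig2 (0.98), Igsf3 (0.97) and Glt8d1 (0.96), and Tgfb3 to 1810055G02Rik (0.98), Rimklb (0.97) and Zfp142 (0.97).

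Within the cardiomyocyte-like class, clusters were divided into an atrial group (2 clusters, led by Myl1, Sln and Myl7 and by Vsnl1, Sln and Shox2), a trabecular-type group (1 cluster, led by Gtsf1, Cited1 and Nppb) and a ventricular group (2 clusters, led by Myl2, Myl3 and Pln). Cycling clusters were left out. Their cells differed in depth, with medians of 1790, 2690 and 1473 UMIs. Of 24 paired comparisons between these groups, 17 passed the threshold. The trabecular-type group depends on the clustering: with another random seed, an alternative added after seeing the data, the cluster led by Gtsf1 also took in Myl2-high cells and held 6046 cells in place of 1569. Bmp10 was still higher there than in ventricular cells (2.07, exact permutation adjusted p = 0.000244). Other trabecular-type differences given below turned, to 1.31 for Bmp4, 0.92 for Bmp2, 0.61 for Bmp5 and 0.22 for Tgfb2 over ventricular cells (exact permutation adjusted p = 0.000533, 0.0119, 0.0226 and 0.0609).

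Bmp10 was highest in the trabecular-type group. In the trabecular-type group it was at 15.8, 22.02, 45.4, 16.7, 19.8, 8.995 and 16.3 CPM in WT replicates 1 to 7. The 4 tm4a libraries had 20.3, 36.9, 24.5 and 0 CPM, and the 4 tm4b libraries 27.2, 30.8, 25.8 and 9.95 CPM. In the atrial group the mean was 7.02 ± 3.82 CPM and in the ventricular group 0.434 ± 0.395 CPM. Trabecular-type cells exceeded ventricular cells by 3.70 ± 1.25 log2 in 14 of 15 libraries (exact permutation adjusted p = 0.000326), atrial exceeded ventricular cells by 2.37 ± 0.83 in 15 of 15 (adjusted p = 0.000183, exact permutation), and atrial were below trabecular-type cells by -1.32 ± 1.43 (exact permutation adjusted p = 0.00710; 0.35, adjusted p = 0.234, with the other seed). The tm4a library at 0, replicate 4, is the exception to the first of these. It held 43 trabecular-type cells with 115688 UMIs, and its ventricular cells were at 0 CPM as well. Trabecular-type cells held 45.5% of the Bmp10 UMIs and 4.53% of all UMIs. A Bmp10 UMI was present in 7.14% of 1569 trabecular-type cells and 0.104% of 9640 ventricular cells, and in 2.28% and 0.0168% after thinning to 1000 UMIs.

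Bmp2 and Bmp4 were higher in the atrial than in the ventricular group, and most so in 1 of the 2 atrial clusters, described below. Bmp2 was at 51.6 ± 22.3 CPM in the atrial group (range 17.4 to 95.1) and 10.8 ± 7.04 in the ventricular group (range 2.86 to 26.4), a difference of 2.26 ± 0.76 log2 in 15 of 15 libraries (exact permutation adjusted p = 0.000183). Bmp4 was at 29.2 ± 8.95 CPM in the atrial and 10.4 ± 5.91 in the ventricular group (1.51 ± 0.85, 15 of 15 libraries, exact permutation adjusted p = 0.000183). Trabecular-type cells were lower still for Bmp4, at 1.31 ± 2.39 CPM with 10 of 15 libraries at 0 (-2.62 against ventricular cells, exact permutation adjusted p = 0.000183). For Bmp2 the trabecular-type level of 6.75 ± 9.47 CPM was below the ventricular one (-1.21, exact permutation adjusted p = 0.0296), but not past the threshold with log2(CPM + 10) or with called doublets kept (adjusted p = 0.0912 and 0.0789, exact permutation). Ventricular shares of cells with a UMI after thinning, 1.13% (0.874 to 1.43%) for Bmp2 and 0.740% (0.538 to 0.992%) for Bmp4, overlapped the endocardial-like shares of 0.836% (0.568 to 1.18%) and 0.755% (0.502 to 1.09%). Trabecular-type shares after thinning were 0.628% (0.272 to 1.23%) and 0.314% (0.0856 to 0.802%). The part of free RNA in these low counts was not tested.

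Bmp5 was also higher in atrial cells, at 30.2 ± 9.05 CPM against 17.8 ± 5.37 in ventricular cells (0.73 ± 0.48, 15 of 15 libraries, exact permutation adjusted p = 0.000183) and 15.8 ± 10.5 in trabecular-type cells. Bmp7 was more even: 70.1 ± 26.0 CPM in trabecular-type, 56.4 ± 16.6 in ventricular and 54.8 ± 14.1 in atrial cells. Trabecular-type exceeded ventricular cells by 0.27 in 12 of 15 libraries (exact permutation adjusted p = 0.0286), while atrial and ventricular cells did not differ past the threshold (-0.039 ± 0.42, adjusted p = 0.731, exact permutation). Tgfb2 was lowest in trabecular-type cells at 48.0 ± 16.2 CPM, against 72.1 ± 13.98 in ventricular cells (-0.64, lower in 14 of 15 libraries, exact permutation adjusted p = 0.000439). Tgfb3 was higher in atrial than in ventricular cells (14.4 ± 4.98 against 6.89 ± 2.26 CPM, 0.96, 15 of 15 libraries, exact permutation adjusted p = 0.000183). Tgfb1 had 7, 2 and 8 UMIs in the atrial, trabecular-type and ventricular groups, too few to compare.

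**Figure D2:**
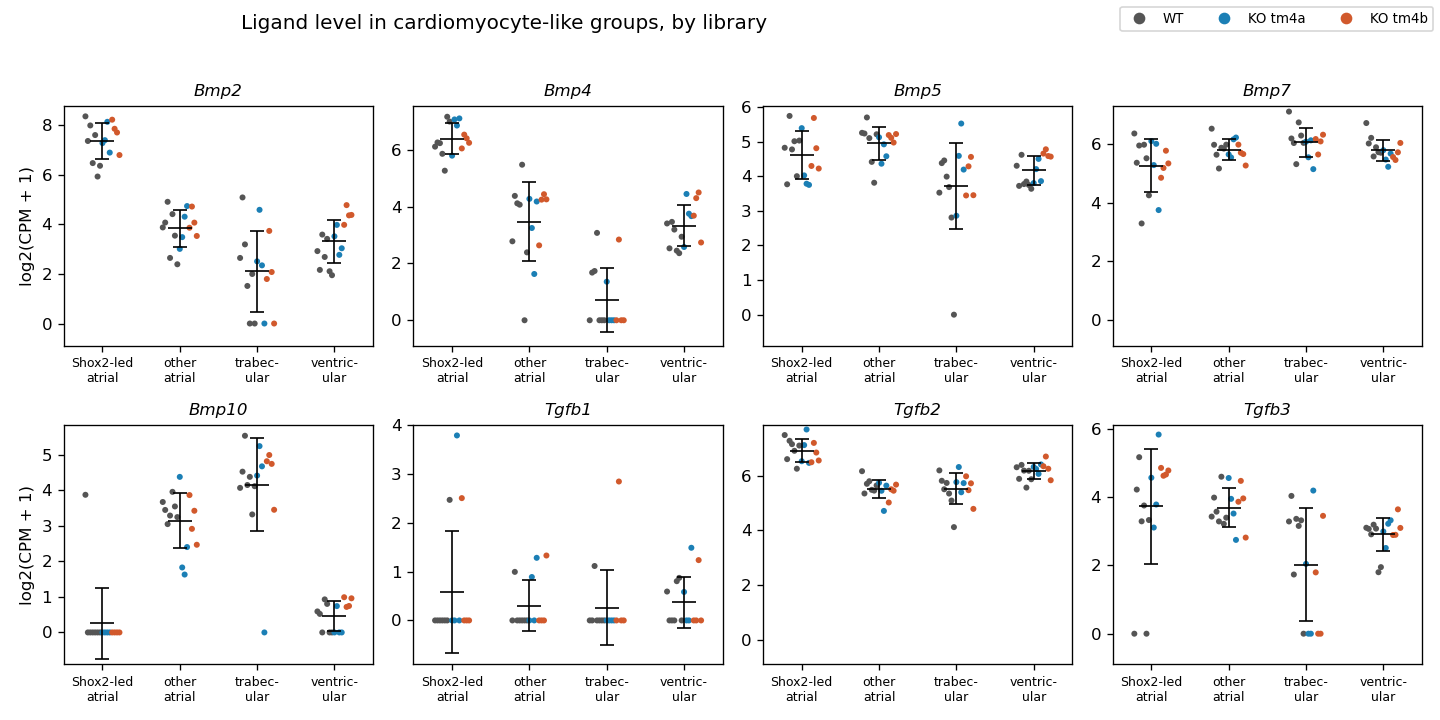
Each panel plots 1 ligand as log2(CPM + 1) in groups of cardiomyocyte-like cells, with a point per library coloured by group (WT, KO tm4a, KO tm4b) and a bar at the mean ± SD. Bmp10 is highest in the trabecular-type group with 1 library at 0, whereas Bmp2 and Bmp4 are highest in the Shox2-led atrial cluster.

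The atrial group joined 2 clusters with different ligands, a split looked at after the values were seen. The cluster of 961 cells whose leading genes included Vsnl1 and Shox2, a transcription factor gene of the sinus node and venous pole, had 183 ± 83.4 CPM of Bmp2 (range 60.1 to 328), against 15.1 ± 7.58 in the other 4326 atrial cells (3.52 ± 0.68 log2, 15 of 15 libraries, exact permutation adjusted p = 0.000183). It held 13.0% of all Bmp2 UMIs and 2.71% of all UMIs. Bmp4 was at 89.3 ± 33.5 against 14.3 ± 10.8 CPM (2.92, 14 of 15 libraries, exact permutation adjusted p = 0.000293). Tgfb2 was at 124 ± 37.1 against 45.8 ± 10.3 CPM (1.39, 15 of 15 libraries, exact permutation adjusted p = 0.000183). Bmp10 went the other way, with 1 UMI in the Shox2-led cluster and 100 in the other atrial cells (-2.88, exact permutation adjusted p = 0.000293). The median cell of the Shox2-led cluster held 2868 UMIs and that of the other atrial cells 1486. After thinning, Bmp2 was seen in 12.4% (10.3 to 14.8%) and 1.15% (0.785 to 1.63%) of cells, so the difference was present at equal depth. Without this cluster, atrial cells did not differ from ventricular cells past the threshold in Bmp2 (0.53 ± 0.92 log2, higher in 8 of 15 libraries, exact permutation adjusted p = 0.0723) or in Bmp4 (0.14 ± 1.52, 7 of 15 libraries, exact permutation adjusted p = 0.789). They were below ventricular cells with finer clusters (-1.24 and -1.20, exact permutation adjusted p = 0.0287 and 0.00161) and with called doublets kept (-1.15 and -1.07, exact permutation adjusted p = 0.0479 and 0.00345). Bmp10 was higher in these other atrial cells than in ventricular cells by 2.68 ± 0.85 in 15 of 15 libraries, and Bmp5 by 0.77 ± 0.49 in 15 of 15 (exact permutation adjusted p = 0.000183 each).

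The first comparison between groups set KO against WT hearts. Over all kept cells, 28 of 13445 genes passed an adjusted p of 0.05 (0.208%, 17 higher and 11 lower in KO, edgeR quasi-likelihood test), and 0 of the 8 ligands did. At an unadjusted p under 0.05 there were 2 ligands, Bmp2 and Bmp7, and 2137 genes (15.9%). By DESeq2 0 ligands passed as well. Sums over all cells cannot tell fewer cells of a type from less RNA per cell.

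Bmp2 over all cells was at 41.2, 43.9, 33.0, 15.1, 24.98, 12.9 and 21.3 CPM in WT replicates 1 to 7. In the KO libraries it was at 23.9, 41.1, 23.9, 34.5, 49.6, 46.6, 60.3 and 61.9 CPM for replicates 1 to 8. WT replicates 1 to 3, from 2 litters, lay among the KO values, and the other WT libraries were near or below the lowest KO values. The means were 27.5 ± 12.2 (SD, n = 7) and 42.7 ± 14.7 CPM (SD, n = 8), with a fitted log2 difference of 0.61 ± 0.23 (SE, edgeR adjusted p = 0.209). The tm4b libraries alone differed from WT by 0.92 (edgeR adjusted p = 0.0999) and the tm4a libraries alone by 0.21 (edgeR adjusted p = 0.824). With flow cell as a covariate, the Bmp2 difference was 0.76 (edgeR adjusted p = 0.728), and the shared flow cell held a single WT library, at 24.98 CPM.

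Bmp7 was lower in KO, at 34.8 ± 10.98 CPM in WT and 27.9 ± 3.97 in KO (-0.33 ± 0.15 SE, edgeR adjusted p = 0.273). WT replicate 1 alone stood at 57.5 CPM, above the WT range of 23.4 to 37.9 in the others, and without it the difference was -0.19 (edgeR adjusted p = 0.474). The remaining fitted differences were 0.21 for Bmp4, 0.021 for Bmp5, -0.53 for Bmp10, 0.070 for Tgfb1, -0.17 for Tgfb2 and 0.26 for Tgfb3, with edgeR adjusted p from 0.421 to 0.966. The groups overlapped for all 8 ligands (0.439% of all genes did not overlap).

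**Figure D3:**
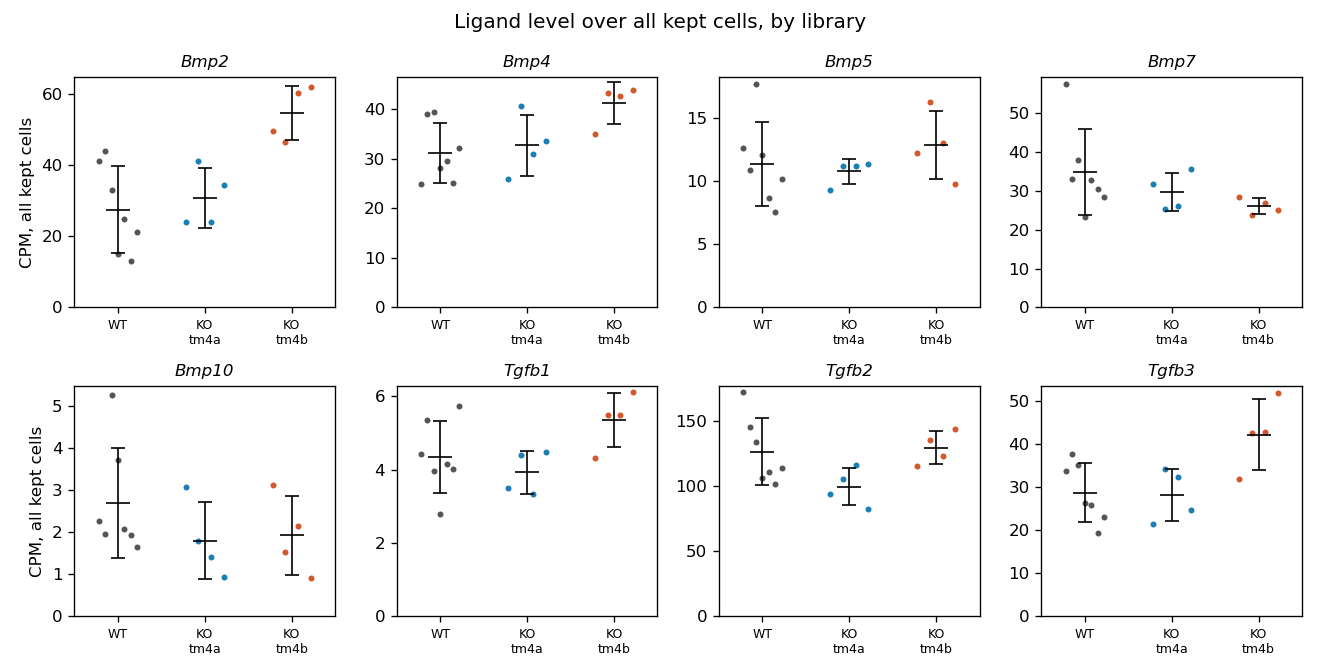
Level of each ligand in CPM over all kept cells (each y axis starts at 0), with a point per library for WT (n = 7), KO tm4a (n = 4) and KO tm4b (n = 4) and a bar at the mean ± SD. The 4 tm4b libraries lie between 46.6 and 61.9 CPM for Bmp2, above the 4 tm4a libraries at 23.9 to 41.1 CPM, while the other 7 ligands overlap between the alleles.

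Within the 12 classes and chamber groups, 42 of the 96 combinations of ligand and group were abundant enough to test, and 0 passed, against 313 of 80211 gene tests (0.390%). At an unadjusted p under 0.05 there were 11 combinations, 8 of them higher in KO, beside 12.8% of all gene tests in either direction. The tests are not separate results, as the cardiomyocyte-like class includes the 3 chamber groups. The largest difference was that of Bmp2 in ventricular cells, at 6.06 ± 3.24 CPM in WT (range 2.86 to 11.04) and 14.9 ± 6.98 in KO (range 5.83 to 26.4), a log2 difference of 1.24 ± 0.31 (SE, edgeR adjusted p = 0.0804). By DESeq2 its adjusted p was 0.0170, without the low-count filter 0.0497, and without WT replicate 3 it was 0.0219 by edgeR, while over all its alternatives the adjusted p ran from 0.0170 to 0.886. With another random seed for the clustering, Bmp2 was too sparse in the ventricular group to test. The main ventricular values rest on 69 Bmp2 UMIs in WT and 179 in KO. Median depth in this group was 1759 ± 701 UMIs in WT and 1325 ± 101 in KO. In endocardial-like cells, where Bmp2 was too sparse to test as well, it was at 7.66 ± 6.10 CPM in WT and 11.8 ± 7.43 in KO libraries, and the part of free RNA in the ventricular difference was not tested. Bmp4 in ventricular cells was at 6.84 ± 2.48 CPM in WT and 13.5 ± 6.41 in KO (0.93 ± 0.30 SE, edgeR adjusted p = 0.151), while in endocardial-like cells it was at 9.08 ± 3.79 and 7.03 ± 2.44 CPM. Bmp7 in ventricular cells was at 64.7 ± 20.03 and 49.1 ± 8.71 CPM (-0.43 ± 0.14 SE, edgeR adjusted p = 0.164).

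Valve interstitial-like cells held the largest share of Bmp2 transcripts, and there it was at 217, 231, 149, 82.0, 64.5, 56.6 and 101 CPM in WT replicates 1 to 7. The tm4a libraries had 129, 266, 127 and 173 CPM and the tm4b libraries 323, 169, 298 and 370 CPM. The 4 WT libraries from replicate 4 on lay below all 8 KO libraries, and WT replicates 1 to 3 among them. The means were 129 ± 71.8 (SD, n = 7) and 232 ± 94.0 CPM (SD, n = 8), with a log2 difference of 0.83 ± 0.27 (SE, edgeR adjusted p = 0.158). The share of valve interstitial-like cells was 10.6 ± 3.44% in WT and 10.01 ± 1.33% in KO. Their median depth was 1662 ± 371 UMIs in WT and 1377 ± 289 in KO. The summed level of 14 immediate early genes, known to respond to stimulation and to tissue dissociation and listed after results were seen, was 5574 ± 1582 CPM in WT and 7725 ± 2641 in KO valve interstitial-like cells, and their part in the Bmp2 values was not tested. In ventricular cells the sum was 2433 ± 523 CPM in WT and 3066 ± 737 in KO, and its part there was not tested either.

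**Figure D4:**
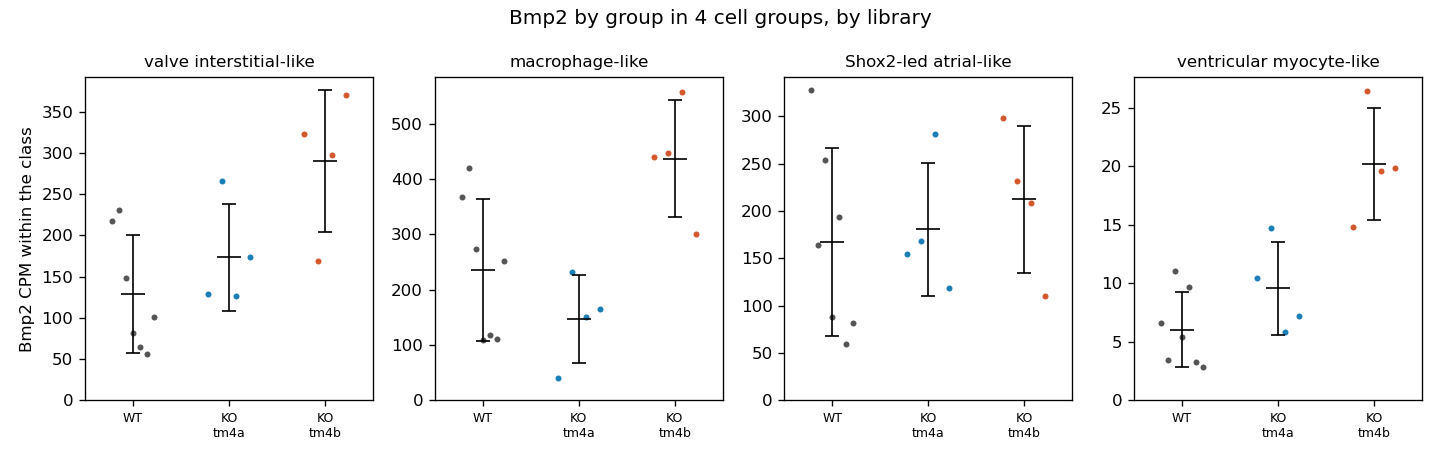
Bmp2 in CPM of the class in 4 groups of cells, with a point per library for WT, KO tm4a and KO tm4b and a bar at the mean ± SD; each y axis starts at 0 and has its own scale. In macrophage-like cells the 4 tm4b libraries (301 to 558 CPM) lie above the 4 tm4a libraries (40.2 to 233 CPM), and WT libraries (109 to 421 CPM) fall across both ranges.

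The second comparison set the 2 alleles against each other, 4 libraries each, in KO hearts only. It called many genes: 2071 of 13531 over all kept cells (15.3%, 1069 higher and 1002 lower in tm4b), so a call of a single ligand is close to that background. Of the 8 ligands 1 passed, Bmp2, and 4 had an unadjusted p under 0.05, beside 30.5% of all genes. Bmp2 was at 23.9, 41.1, 23.9 and 34.5 CPM in the tm4a libraries and at 49.6, 46.6, 60.3 and 61.9 CPM in the tm4b libraries, with no overlap (23.0% of all genes did not overlap). The means were 30.8 ± 8.45 and 54.6 ± 7.65 CPM (SD, n = 4 each), a log2 difference of 0.71 ± 0.17 (SE, edgeR adjusted p = 0.0170). It was past the threshold by DESeq2 (adjusted p = 0.00131), but not without tm4b replicate 7 (0.67, edgeR adjusted p = 0.0554) or when the WT libraries shared the estimate of the spread (0.71, edgeR adjusted p = 0.210). The tm4b libraries held 9186526 ± 1040481 UMIs and the tm4a libraries 7229538 ± 2009938.

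Tgfb3 was at 21.5, 34.3, 32.5 and 24.8 CPM in tm4a and 31.9, 42.6, 42.8 and 51.9 CPM in tm4b libraries, which overlapped in 1 tm4b library (0.47 ± 0.15 SE, edgeR adjusted p = 0.0536). It passed by DESeq2 (adjusted p = 0.0356). Tgfb2 was at 99.4 ± 14.4 and 129 ± 12.5 CPM (0.27 ± 0.096 SE, edgeR adjusted p = 0.0814) and Bmp7 at 29.7 ± 4.86 and 26.0 ± 2.04 CPM (-0.30 ± 0.14 SE, edgeR adjusted p = 0.155). Bmp4, Bmp5, Bmp10 and Tgfb1 had differences of 0.22, 0.15, -0.066 and 0.33, with edgeR adjusted p of 0.257 to 0.940. Fitted differences use TMM scaling, which sets them below the log2 ratio of the CPM means. Without TMM factors the median of all genes moved from 0.015 to 0.13. In that fit 3 of the 8 ligands passed, beside 1969 genes called higher and 492 called lower in tm4b among all genes. Of the called genes, 80.0% were thus higher in tm4b, against 51.6% with TMM factors.

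**Figure D5:**
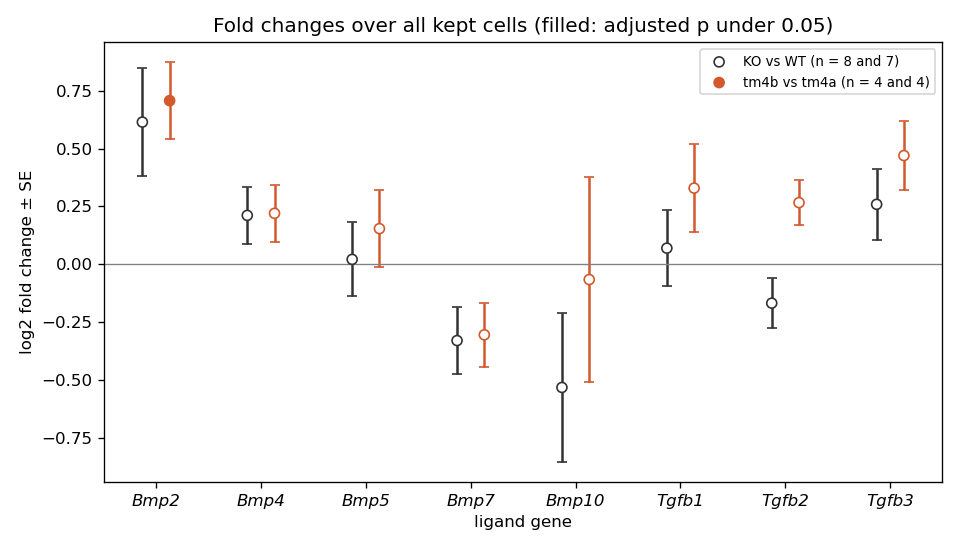
Log2 fold change ± SE of each ligand over all kept cells, for KO against WT (black, n = 8 and 7) and for tm4b against tm4a (orange, n = 4 and 4); filled points passed an adjusted p of 0.05. Bmp2 in tm4b against tm4a (0.71) is the filled point; the 2 comparisons share the KO libraries.

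Per class, 1 of 42 tested combinations passed, against 4432 of 82755 gene tests (5.36%). All 11 with an unadjusted p under 0.05 were higher in tm4b, beside 20.7% of all gene tests with such a p in either direction. The share of those gene tests that were higher in tm4b is not given here. The 42 tests are not separate results, as the cardiomyocyte-like class includes the 3 chamber groups. The tm4a and tm4b libraries did not overlap in 5 of the 42, 4 of them among the 11, beside 13.6% of all gene tests. The call was Bmp2 in ventricular cells, at 10.5, 14.8, 5.83 and 7.21 CPM in tm4a and 14.8, 26.4, 19.6 and 19.9 CPM in tm4b libraries (0.90 ± 0.28 SE, edgeR adjusted p = 0.0451, with 9.66% of genes called in this group). It was not past the threshold with finer clusters (edgeR adjusted p = 0.0588), when WT libraries shared the spread (adjusted p = 0.314) or without any one of 6 of the 8 libraries (tm4a replicates 1, 3 and 4 and tm4b replicates 6, 7 and 8, adjusted p 0.0778 to 0.147), and with another random seed for the clustering it was too sparse to test. The 8 KO libraries held 179 Bmp2 UMIs in the ventricular group. In endocardial-like cells Bmp2 was at 8.49 ± 4.94 CPM in tm4a and 15.1 ± 8.68 in tm4b.

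In macrophage-like cells Bmp2 was at 40.2, 233, 151 and 164 CPM in tm4a and 440, 448, 558 and 301 CPM in tm4b libraries. The groups did not overlap, and the log2 difference of 1.49 ± 0.31 (SE) was the largest of the 42. It did not pass by edgeR (adjusted p = 0.178, where 0 of 3026 genes passed and 357 had an unadjusted p under 0.05). It did by DESeq2 (adjusted p = 0.00634) and without the low-count filter (edgeR adjusted p = 9.573e-07). The share of all genes called under those 2 settings is not given here, so these 2 values have no background beside them. WT libraries lay across both ranges, at 368, 421, 274, 109, 118, 112 and 253 CPM. The macrophage-like share of cells was 2.63 ± 1.46% in tm4a and 2.27 ± 0.16% in tm4b, and the summed level of immediate early genes was 9856 ± 1256 and 10567 ± 912 CPM. A list of 6 inflammatory genes summed to 14329 ± 2172 CPM in tm4a and 16359 ± 3379 in tm4b. The part of either list in the Bmp2 values was not tested. The library at 40.2 CPM, tm4a replicate 1, held 57 macrophage-like cells with 99543 UMIs. Over the 15 libraries, up to 20 Bmp2 UMIs were counted in 1 macrophage-like cell.

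In valve interstitial-like cells the 3 ligands with the largest shares of their transcripts there had values in the same order without passing. Tgfb3 was at 86.1, 124, 127 and 91.1 CPM in tm4a and 157, 130, 170 and 183 CPM in tm4b libraries, with no overlap (0.53 ± 0.17 SE, edgeR adjusted p = 0.0760). Bmp2 was at 174 ± 64.9 and 290 ± 85.9 CPM (0.68 ± 0.23 SE, edgeR adjusted p = 0.0998), and Tgfb2 at 247 ± 58.5 and 350 ± 55.3 CPM (0.45 ± 0.17 SE, edgeR adjusted p = 0.125). The class was 9.60 ± 1.33% of cells in tm4a and 10.4 ± 1.39% in tm4b, and the median depth 1242 ± 330 and 1512 ± 193 UMIs. Immediate early genes summed to 6916 ± 2463 CPM in tm4a and 8534 ± 2910 in tm4b. The other combinations whose groups did not overlap were Bmp5 in ventricular cells (16.4 ± 4.03 and 24.1 ± 1.71 CPM, edgeR adjusted p = 0.162) and Tgfb2 in fibroblast-like cells (146 ± 9.69 and 169 ± 9.98 CPM, edgeR adjusted p = 0.455).

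A list of 65 other genes of the pathway, in 5 groups, was tested in the same fits, and 58 were abundant enough over all cells. Between KO and WT, 0 of 58 passed in either direction, beside 0.208% of all genes called. At an unadjusted p under 0.05 there were 8 of the 58, beside 15.9% of all genes. The list's median difference was -0.0054 against -0.025 for all genes. The 5 smallest p belonged to Inhba, the activin A subunit gene (31.4 ± 10.5 CPM in WT and 44.8 ± 13.2 in KO, 0.48, edgeR adjusted p = 0.191), the decoy receptor gene Bambi (83.5 ± 14.46 and 63.5 ± 18.2 CPM, -0.44, adjusted p = 0.202), Nrros, which holds latent TGF-beta on macrophages (-0.47, adjusted p = 0.220), and the BMP target genes Id1 (122 ± 32.5 and 167 ± 33.6 CPM, 0.41, adjusted p = 0.225) and Id3 (0.30, adjusted p = 0.226, all edgeR). Over the 12 classes and chamber groups, 2 of 341 tests passed, a count near the background of 0.390% of all gene tests called. The matrix gene Tgfbi was lower in KO in cardiomyocyte-like cells (8.68 ± 2.46 and 4.79 ± 1.51 CPM, -0.85 ± 0.21 SE, edgeR adjusted p = 0.0424). Ctgf, a matricellular target of TGF-beta, was higher in KO in atrial cells (86.7 ± 17.0 and 173 ± 54.2 CPM, 0.96 ± 0.19 SE, edgeR adjusted p = 0.0182). Neither passed with flow cell as a covariate (edgeR adjusted p = 0.441 and 0.438). The Tgfbi call was also lost with called doublets kept (-0.69, edgeR adjusted p = 0.126), without TMM factors (0.0666), without the low-count filter (0.0562) and on leaving out any one of 12 of the 15 libraries (all but tm4a replicate 2 and WT replicates 1 and 3; 0.0531 to 0.0986). The Ctgf call was lost without tm4b replicate 6 (edgeR adjusted p = 0.0565) or 8 (0.0528).

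Between the alleles, 13 of 58 genes of the list were higher in tm4b and 0 lower over all cells, beside 15.3% of all genes called, and the median difference was 0.27 against 0.015 for all genes. By role, 5 of 12 receptors, 3 of 8 other ligands, 3 of 12 Smads and regulators, 2 of 14 antagonists and latency proteins and 0 of 12 target genes passed. The receptors were Acvr2a (18.5 ± 1.44 and 27.5 ± 1.06 CPM, 0.45, edgeR adjusted p = 0.0146), Bmpr2 (11.6 ± 1.30 and 19.9 ± 3.32 CPM, 0.66, adjusted p = 0.0206), the co-receptor Tgfbr3 (0.41), Acvr2b (0.49) and Bmpr1a (0.29). Smad1, which carries BMP signals, had the smallest p of the list (31.7 ± 3.10 and 52.6 ± 8.86 CPM, 0.62 ± 0.11 SE, edgeR adjusted p = 0.00741), and Smad5 (0.25) and Smurf2, a ubiquitin ligase of the pathway (0.40), passed too. Inhba (33.7 ± 4.29 and 56.0 ± 7.80 CPM, 0.61, edgeR adjusted p = 0.0100), Bmp1, which despite its name encodes a metalloprotease (0.44), and Bmp3 passed among other ligands, the last at 0.428 ± 0.494 and 2.26 ± 0.511 CPM, and Ltbp3, which binds latent TGF-beta (0.56), and Twsg1, a BMP-binding protein (0.36), passed among antagonists and latency proteins. With RLE scaling 12 passed and without TMM factors 18, all higher in tm4b. When the WT libraries shared the estimate of the spread, 0 of 59 passed in place of 13 (Smad1 0.62, edgeR adjusted p = 0.147). Among all genes that fit called 2 in place of 2071. Leaving out 1 library gave 4 to 15 calls: 4 without tm4b replicate 6 or 7, 5 without tm4a replicate 1 or 2 or tm4b replicate 8, and 8 without tm4b replicate 5.

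Per class, 12 tests of 349 were higher and 1 lower in tm4b, a count not above the background of 5.36% of all gene tests called. Smad1 rose in cardiomyocyte-like cells (0.74), in valve interstitial-like cells (49.4 ± 13.3 and 91.4 ± 7.47 CPM, 0.81 ± 0.20 SE, edgeR adjusted p = 0.0295) and in fibroblast-like cells (37.2 ± 1.85 and 74.7 ± 6.09 CPM, 0.93 ± 0.15 SE, edgeR adjusted p = 0.00214). In valve interstitial-like cells Inhba (170 ± 2.88 and 259 ± 37.2 CPM) and Bmpr1a (68.8 ± 8.82 and 110 ± 11.05 CPM) rose as well. Acvr2a, Acvr2b, Smurf2 and the Smad repressor Skil rose in cardiomyocyte-like cells, and Bmpr2, Bmp1 and Ltbp3 in fibroblast-like cells. The BMP target Id2 fell in fibroblast-like cells (675 ± 92.7 and 509 ± 73.2 CPM, -0.48 ± 0.12 SE, edgeR adjusted p = 0.0172). When the WT libraries shared the estimate of the spread, 0 of 375 tests passed (Smad1 in fibroblast-like cells 0.93, edgeR adjusted p = 0.171). Without tm4b replicate 7 there were 4 calls and without tm4a replicate 3 there were 5, while without TMM factors 31 tests were higher and 1 lower.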

How the data were processed

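Whole hearts were profiled by Drop-seq, and the authors deposited a joined table of UMI counts, 16809 genes by 55152 barcodes, for 15 libraries. The submitters' processing notes name bcl2fastq 2.17, Seurat 2.1 and mm10; of the aligner, strand and any earlier filter the sources used here say nothing. The 8 ligands, the pathway list and the other lists were chosen with earlier results of these data known.

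Barcodes were kept from 300 detected genes up and to 30% mitochondrial UMIs (50899). Scrublet in scanpy 1.11.5 called 128 doublets (0.251%; under 0.5% in 14 of 15 libraries, so the caller cannot be taken to have worked), which were removed, leaving 50771 cells; leaving out the 5% of cells with the highest scores was added as an alternative. Cells were clustered (2000 variable genes without ligands, pathway genes, Adamts19, LacZ, sex-linked or mitochondrial genes; 30 components, 20 neighbours, Leiden resolution 1.0, leidenalg 0.10.2) into 24 clusters; another random seed was added as an alternative. The rule that left a cluster unnamed was set after the clusters were seen. Clusters of haemoglobin and of epithelial genes stayed unnamed, while a cluster of 177 cells was named erythroid and is not among the classes compared. A ventricular cluster of 4218 cells had a median of 636 UMIs. Names rebuilt in this way may differ from the study's. Keeping called doublets as an alternative meant clustering and naming all cells anew, so class membership could change too.

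Counts were summed per library and class (at least 10 cells) and tested with edgeR 4.0.16 in R 4.3.3 (quasi-likelihood, TMM, filterByExpr, Benjamini-Hochberg over all genes of the fit); DESeq2 1.42.0 was an alternative. CPM values are counts per 1000000 UMIs of the class, without TMM factors. Class levels used a pseudocount of 1 and sign-flip permutation over libraries (scipy 1.17.1, Python 3.11.15). The scripts were tested on simulated data. The text names all 8 ligands, pathway genes that passed and the 5 of smallest p in each all-cell comparison, and the 3 genes most like each ligand. Some genes that this rule or a cluster's leading genes would name are not reported here. The description of WT replicate 4 carries the number 3; its title was used.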

Additional observations from a re-analysis of the deposited data

Results flagged for a closer look

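Single libraries stood far from the rest of their group in 5 of the 59 sets of 4 to 7 libraries examined. The rule was set to flag about 1 in 20 sets of independent values. These sets overlap, as sums over all cells hold those of the classes, so the count was not tested against chance. Over all cells, Bmp4 in tm4b replicate 5 was at 34.9 CPM, below the other 3 tm4b libraries at 42.7 to 43.8 CPM. Bmp5 in tm4a replicate 1 was at 9.31 CPM, below the other 3 at 11.2 to 11.4 CPM. Bmp7 in WT replicate 1 was at 57.5 CPM, above the other 6 WT libraries at 23.4 to 37.9 CPM, and in cardiomyocyte-like cells of the same library it was at 102 CPM, against 38.3 to 62.8 CPM. Bmp10 in trabecular-type cells of WT replicate 3 was at 45.4 CPM, against 8.995 to 22.02 CPM in the other 6.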

How the results depend on the processing

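Between KO and WT, 0 ligands passed over all cells under every alternative run, but the count of all genes called (28) moved: 422 by DESeq2, 17 with no low-count filter, 6 with flow cell as covariate, 2 with counts summed per litter, 15 with the 5% highest doublet scores left out and 2 with tm4a libraries alone against WT. Leaving out each library gave 5 to 403 genes: 403 when WT replicate 3 was absent, 98 when WT replicate 1 was, and 5 to 14 for each of the other 13. Per class, DESeq2 and no filter each gave 1 ligand call, and leaving out a library 0 to 1 (1 without WT replicate 3). Correlations of the deviations of same-numbered WT and KO libraries ran from -0.31 to 0.13, so the numbers were not taken as pairs; with the replicate number as a block 2 genes passed, and Bmp2 had 0.57 (edgeR adjusted p = 0.531).

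Between the alleles, ligand calls over all cells (1) became 2 by DESeq2, 2 with no filter, 2 with the highest doublet scores left out, 3 without TMM factors and 0 with all 15 libraries in 3 groups, which called 2 genes in place of 2071. Without TMM factors, 1969 of all genes were called higher and 492 lower in tm4b. The counts of all genes called by DESeq2, with no filter and without the highest doublet scores are not given here. Leaving out a library gave 0 to 2 ligand calls (0 without tm4b replicate 7). It gave 747 to 2191 genes (747, 1059 and 1252 without tm4b replicates 7, 8 and 6). Per class the 1 call became 0 with Leiden resolution 1.5, 0 with another random seed for the clustering, 0 in 3 groups, 2 without TMM factors and 3 with no filter, and 0 to 2 without a library (0 without tm4a replicate 1, 3 or 4 or tm4b replicate 7).

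Of the 72 class comparisons 23 passed, 22 to 27 under the other settings, and 0 with WT libraries only, where 7 libraries allow no p under 0.0156. Of the chamber comparisons 17 passed, 13 to 18 under alternatives. Bmp7 in mural-like against fibroblast-like cells reversed with called doublets kept and cells clustered anew (0.94, exact permutation adjusted p = 0.0189). With another random seed for the clustering, trabecular-type against ventricular cells reversed for Bmp2 (0.92), Bmp4 (1.31), Bmp5 (0.61) and Tgfb2 (0.22), and atrial against trabecular-type cells for Bmp10 (0.35) and Tgfb2 (-0.14), while the trabecular-type cluster held 6046 cells. Atrial cells outside the Shox2-led cluster against ventricular cells reversed for Bmp2 (-1.24 and -1.15) and Bmp4 (-1.20 and -1.07) with finer clusters and with called doublets kept. The causes were not tested. Depth limits Bmp10 and Tgfb1 most, with 288 and 554 UMIs.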

Other observations

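Bmp2 was also found in the small cluster led by the platelet genes Pf4, Gp9 and Ppbp, which enters no comparison above. In the 6 libraries with at least 10 such cells it was at 141 ± 177 CPM (SD, n = 6), from 0 to 399. Bmp7 was at 41.1 ± 23.9 and Tgfb2 at 85.5 ± 62.8 CPM in the same cells (SD, n = 6). The part of doublets or free RNA in these values was not tested. The whole cluster, over all libraries, held 28 Bmp2 UMIs in 156 cells. Both valve interstitial-like clusters held the ligand, at 195 ± 110 CPM in the larger (4413 cells) and 136 ± 69.5 CPM in the smaller, led by Car3 and Hapln1 (836 cells). Up to 23 Bmp2 UMIs were counted in 1 cell.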
